A study of Mus musculus with 6 samples.

Results

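The Krüppel-like factors are transcription factors that bind GC-rich and CACCC-type DNA with zinc fingers, and several of them act for or against the formation of fat cells. The 10 members of this family described here are Klf2, Klf3, Klf4, Klf5, Klf6, Klf7, Klf9, Klf10, Klf13 and Klf15, and the measurement is the occupancy of their genes by Lsd1. Lsd1 (Kdm1a) is a lysine-specific demethylase that removes methyl groups from histone H3 and works within corepressor complexes such as that of CoREST. A gene counted as occupied when the centre of an Lsd1 peak lay within 10 kb of its span in the curated RefSeq annotation of the mouse genome build GRCm38 (mm10). By this rule 85 of the 95852 peaks of the series belonged to the 10 genes, which are 10 of 26180 annotated genes.

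The peaks were obtained by Lsd1 ChIP-seq in the mouse myoblast line C2C12, which can be driven towards muscle or, with inducers, towards fat, and all cells were taken on day 1 of differentiation. Wild-type cells were kept in myogenic medium with horse serum or in adipogenic medium, which held isobutylmethylxanthine, indomethacin, dexamethasone, insulin, T3 and rosiglitazone in fetal calf serum. The third condition was LSD1(OE) cells in adipogenic medium, a stable line that carries Flag-tagged LSD1 behind a tetracycline-dependent promoter on a lentivirus and received doxycycline before and during differentiation. In this condition the overexpressed protein, the integrated vector and the doxycycline cannot be told apart. The antibody was directed to the C-terminal end of Lsd1. Each condition had 1 ChIP library and 1 input library. A difference below is thus a difference between single libraries, with no replicate check and no test between conditions. The intervals given cover counting error only.

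The myogenic, adipogenic and LSD1(OE) ChIP libraries held 46155625, 63915769 and 55193310 tags after the removal of duplicates, and their lists 43426, 18893 and 33533 peaks. Hence the deepest library had the shortest list, and 7.12, 3.20 and 5.28% of the tags fell in peaks. The weakest peak of each list had 27, 35 and 30 tags, which bounds what these lists can show. A gene without a peak is therefore a gene where Lsd1 was not detectable as a peak at this depth. Values of a peak are its tag count, its MACS score (10 times −log10 of the p-value against the local background), and its tag density, which is the tags per kb of peak per 1000000 ChIP tags with an exact 95% Poisson interval. The tag density divides by the length of the peak as called, which differed between libraries.

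First, the number of occupied genes was counted in each library. In the myogenic library 9 of the 10 genes had a peak, where 62.5% of all genes had one. In the adipogenic library the count was 8 of 10, against 41.2% of all genes, and in the LSD1(OE) library all 10 genes had a peak, against 53.9%. A promoter peak, centred within 2000 bp of a transcription start site (TSS) of the gene, was present at 9 genes in the myogenic library, at 8 in the adipogenic library and at 9 in the LSD1(OE) library. Of all genes, 46.8, 27.0 and 37.3% had a promoter peak in these libraries. For 8 of the 10 genes the promoter was occupied in all 3 libraries, a pattern that 23.5% of all genes showed. The exceptions were Klf6 and Klf15. The windows of the 10 genes had a median length of 35.9 kb, against 33.5 kb over all genes.

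The genes differed widely in how many peaks they carried. Together they had 29 peaks in the myogenic, 19 in the adipogenic and 37 in the LSD1(OE) library. The median per gene was 3, 1 and 3 peaks, against 1, 0 and 1 over all genes. Klf3 had 7, 4 and 5 peaks and Klf13 had 4, 6 and 12, while Klf2 had 1 in each library and Klf15 had 1 in the LSD1(OE) library alone. The lead of the LSD1(OE) library came from Klf13, since without it the 9 remaining genes had 25, 13 and 25 peaks. By position, 12 of the 29 myogenic peaks, 10 of the 19 adipogenic peaks and 11 of the 37 LSD1(OE) peaks were promoter peaks, and 7, 6 and 17 lay in introns.

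**Figure D1:**
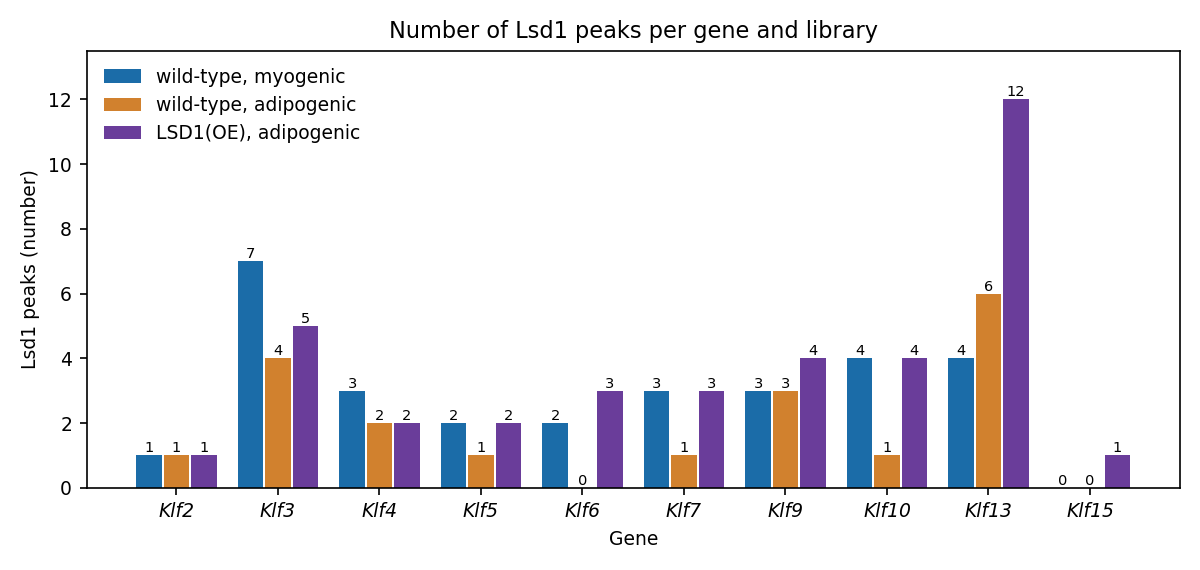
Number of Lsd1 peaks (y axis) within 10 kb of each of the 10 genes (x axis) in the wild-type myogenic, wild-type adipogenic and LSD1(OE) adipogenic library, 1 library each. Klf13 had 12 peaks in the LSD1(OE) library, Klf3 was highest in the myogenic library with 7, and Klf6 and Klf15 had no bar in the adipogenic library.

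**Figure D2:**
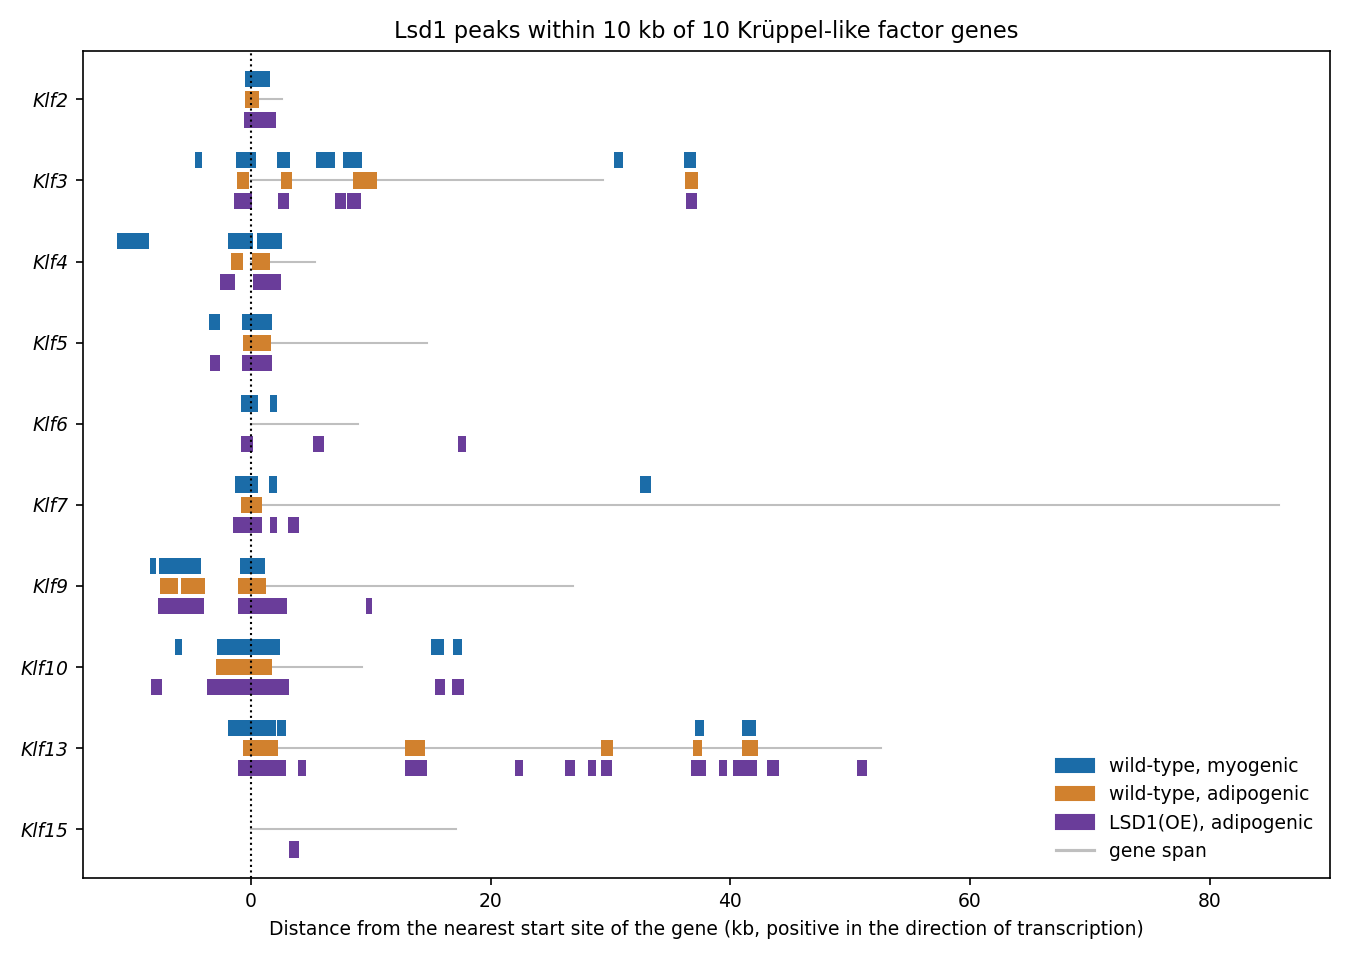
Position of every peak (coloured bars, to scale) relative to the nearest TSS of its gene, in kb and positive in the direction of transcription, with 1 row of bars per library and the gene span as a grey line. Bars gather at the dotted line of the TSS in all genes but Klf15, and the LSD1(OE) bars of Klf13 spread along its whole span.

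When peaks of the 3 libraries that overlapped by at least 1 bp were merged, the 10 genes had 41 regions of 56729 in the genome. Of these 15 (36.6%) were occupied in all 3 libraries, against 20.6% of all regions, and 8 of the 15 held a promoter peak. A further 6 (14.6%) were found in the myogenic library only, against 35.9% of all regions, and 13 (31.7%) in the LSD1(OE) library only, against 20.8%. No region belonged to the adipogenic library only or to the myogenic and adipogenic libraries together, patterns of 3.7 and 4.38% of all regions. The myogenic and LSD1(OE) libraries shared 5 regions (12.2%, against 12.2% of all regions), and the adipogenic and LSD1(OE) libraries 2 (4.88%, against 2.45%). Every member region occupied in the adipogenic library was thus also occupied in the LSD1(OE) library. Over the genome, 11664 and 1389 regions with an adipogenic peak also had an LSD1(OE) peak, with and without a myogenic one. Another 2097 and 2485 had none. The member result depended on the lists, since equally long lists of the strongest peaks gave a member region of the adipogenic library only. Both regions shared by the adipogenic and LSD1(OE) libraries alone, and 7 of the 13 regions of the LSD1(OE) library only, lay in Klf13.

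Klf2, Klf3 and Klf7 are known as brakes on adipogenesis. Klf2, which keeps preadipocytes from maturing and is also a quiescence factor of endothelium, is a short gene (chr8:72319062-72321654, + strand) and had 1 region, at its start. The peak held 156 tags in the myogenic library (score 568), 90 in the adipogenic library (score 147) and 253 in the LSD1(OE) library (score 975). The adipogenic library was lowest. Its tag density was 1.23 (0.991 to 1.52), compared with 1.60 (1.36 to 1.87) in the myogenic and 1.72 (1.51 to 1.94) in the LSD1(OE) library. The ratio of LSD1(OE) to wild-type cells in adipogenic medium was 1.39 (1.09 to 1.79), with its exact 95% interval. That of adipogenic to myogenic density was 0.771 (0.588 to 1.01), an interval that includes 1. The peak was called over 1142 bp in the adipogenic and 2114 bp in the myogenic library. Without division by length this ratio was 0.417 (0.318 to 0.543), so the reading depends on the length of the peaks.

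Klf3, a repressor that works with CtBP and also controls muscle genes (chr5:64803521-64832901, + strand), had 6 regions, 4 of them occupied in all 3 libraries. At the promoter the peak held 169, 103 and 143 tags in the myogenic, adipogenic and LSD1(OE) library, with scores of 947, 267 and 567. Its tag density was 2.23 (1.90 to 2.59) in the myogenic, 1.63 (1.33 to 1.97) in the adipogenic and 1.74 (1.47 to 2.05) in the LSD1(OE) library. The myogenic value was highest. The ratio of the adipogenic to the myogenic density was 0.730 (0.566 to 0.938). The promoter summits of the 3 libraries lay 465 to 519 bp upstream of the TSS. The 300 bp around the myogenic summit (chr5:64802855-64803154, + strand, GRCm38) are shown because they held more GGGCGG boxes, on either strand, than the other windows printed here. Capitals mark, here and in the sequences that follow, matches on either strand to CACCC (a core of Krüppel-like sites), to the GC box GGGCGG, to the E-box CAGCTG, to the AP-1 motif TGANTCA or to AGAACA, a half-site of steroid receptors.
Klf3 promoter summit, myogenic: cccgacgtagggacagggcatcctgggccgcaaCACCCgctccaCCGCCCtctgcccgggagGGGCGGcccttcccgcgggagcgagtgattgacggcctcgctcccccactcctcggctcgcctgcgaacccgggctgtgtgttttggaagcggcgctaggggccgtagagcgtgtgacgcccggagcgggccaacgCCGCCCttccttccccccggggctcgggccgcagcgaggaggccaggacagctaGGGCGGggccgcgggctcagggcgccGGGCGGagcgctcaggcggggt

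An intronic region of Klf3 about the position 2745 bp downstream of the TSS held 66, 61 and 55 tags in the same order of libraries, and a wider one further into the intron held 2 peaks in the myogenic, 1 in the adipogenic and 2 in the LSD1(OE) library. In the wider region the adipogenic density was 0.676 (0.539 to 0.843) times the myogenic one. The adipogenic peak overlapped only the farther myogenic peak. Its summit lay beyond both, 10196 bp from the TSS, against 5958 and 8800 bp for the myogenic summits. This ratio therefore compares stretches that overlap only in part. Behind the gene, 36639 bp from the TSS, the order turned. There the peak held 56, 99 and 71 tags with scores of 144, 227 and 189. The ratio of adipogenic to myogenic density was 1.19 (0.846 to 1.68), higher than at 98.3% of all regions these libraries shared, although its interval includes 1. The other 2 regions of Klf3 were found in the myogenic library only, with 28 and 38 tags.

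Klf7, known from neurons and as an inhibitor of fat cell formation (chr1:64035663-64121389, − strand), showed the lowest adipogenic to myogenic tag density ratio of the members at its promoter. The peak held 186, 122 and 176 tags with scores of 966, 149.9 and 460.4. The tag density was 2.09 (1.80 to 2.41) in the myogenic, 1.09 (0.905 to 1.30) in the adipogenic and 1.34 (1.15 to 1.55) in the LSD1(OE) library. The myogenic library stood above both adipogenic ones. The ratio of adipogenic to myogenic density was 0.521 (0.411 to 0.658), a value below which only 1.14% of the shared regions lay. The ratio of LSD1(OE) to myogenic density was 0.640 (0.518 to 0.791). The summits differed as well, since the myogenic and LSD1(OE) summits were 758 and 1084 bp upstream of the TSS and the adipogenic one 275 bp downstream, in the UTR. A small peak in the intron, 1844 bp downstream of the TSS, was shared by the myogenic (30 tags) and LSD1(OE) (34 tags) libraries. The gene had 1 more intronic peak in the myogenic library, with 53 tags, and 1 in the LSD1(OE) library, with 61 tags.

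Klf4, Klf5, Klf6, Klf9 and Klf15 are known to promote adipogenesis. Klf4, better known as a pluripotency factor, acts early in it with C/EBPβ (chr4:55527137-55532475, − strand). Its promoter region, which merged 2 peaks in each library, held in its stronger peak 175 tags in the myogenic (score 704), 141 in the adipogenic (score 301) and 226 in the LSD1(OE) library (score 888). The weaker peaks held 158, 72 and 95 tags. Their summits lay 20, 1161 and 2274 bp upstream of the TSS, so these peaks do not mark the same place. By score the adipogenic library was lowest for the stronger and for the weaker peak. Over the region the ratio of adipogenic to myogenic density was 0.764 (0.641 to 0.911) and that of LSD1(OE) to wild-type adipogenic density 1.22 (1.03 to 1.46).

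The strongest Klf4 peak of the myogenic library lay upstream, 9843 bp from the TSS, with 209 tags and a score of 806, just inside the window. In the adipogenic and LSD1(OE) libraries the peak at this place held 87 and 74 tags with scores of 158 and 168, and its centre lay 10503 and 10482 bp away, just outside. These were not counted among the 85 peaks, so the count of 3 against 2 and 2 peaks for Klf4 came from the window, while the region itself was occupied in all 3 libraries. The ratio of adipogenic to myogenic density there was 0.773 (0.595 to 0.998), and that of LSD1(OE) to myogenic density 0.729 (0.552 to 0.955). The 300 bp at its myogenic summit (chr4:55542930-55543229, + strand, GRCm38) are shown as an example far from a promoter, with 1 CAGCTG, an E-box that myogenic bHLH factors can bind.
Klf4 upstream summit, myogenic: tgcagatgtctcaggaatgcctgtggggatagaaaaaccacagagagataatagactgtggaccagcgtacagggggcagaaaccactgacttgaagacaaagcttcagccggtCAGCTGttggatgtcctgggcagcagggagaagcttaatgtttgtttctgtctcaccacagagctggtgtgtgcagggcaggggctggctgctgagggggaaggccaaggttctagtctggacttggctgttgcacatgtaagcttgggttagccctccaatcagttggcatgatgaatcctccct

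Klf5, an activator of Pparg transcription in preadipocytes (chr14:99298691-99313412, + strand), had a strong promoter peak in every library. It held 245, 251 and 287 tags in the myogenic, adipogenic and LSD1(OE) library, with scores of 1317, 651 and 1427. By score these peaks stood above 98.4, 97.4 and 98.7% of their lists. The tag density was 2.16 (1.90 to 2.45) in the myogenic, 1.66 (1.46 to 1.88) in the adipogenic and 2.09 (1.86 to 2.35) in the LSD1(OE) library, so the adipogenic library was lowest and the other two were close. The ratio of LSD1(OE) to wild-type adipogenic density was 1.26 (1.06 to 1.498), and that of LSD1(OE) to myogenic density 0.969 (0.814 to 1.15). A second region, 3041 bp upstream in the myogenic library, was shared by the myogenic (51 tags) and LSD1(OE) (46 tags) libraries.

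Klf6, which represses the preadipocyte gene Dlk1 (chr13:5861489-5870393, + strand), was the one member whose promoter was occupied in the myogenic and LSD1(OE) libraries and not in the adipogenic library, a pattern of 10.8% of all genes. The promoter peak held 95 tags in the myogenic library (score 323) and 64 in the LSD1(OE) library (score 125), and the adipogenic list had none there. The nearest adipogenic peak lay 634496 bp outside the gene and was nearest to the TSS of Pitrm1. The tag density was 1.51 (1.22 to 1.84) in the myogenic and 1.13 (0.873 to 1.45) in the LSD1(OE) library, with a ratio of 0.753 (0.540 to 1.04). The list gives no tag count for a place without a peak. The size of the difference to the adipogenic library is therefore unknown. Further peaks of Klf6 were small, with 28 tags in the myogenic library and 55 and 36 in the LSD1(OE) library. The 300 bp at the myogenic promoter summit (chr13:5861050-5861349, + strand, GRCm38) are shown because this promoter was without a peak in 1 library.
Klf6 promoter summit, myogenic: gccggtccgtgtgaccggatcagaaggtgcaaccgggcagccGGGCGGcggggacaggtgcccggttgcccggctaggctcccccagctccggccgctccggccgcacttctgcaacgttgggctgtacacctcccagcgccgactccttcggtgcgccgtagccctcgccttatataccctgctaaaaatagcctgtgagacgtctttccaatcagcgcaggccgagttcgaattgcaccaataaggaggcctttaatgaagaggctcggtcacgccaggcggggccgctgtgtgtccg

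Klf9, a glucocorticoid-inducible activator of adipogenesis (chr19:23141226-23168129, + strand), had a second strong region upstream of its promoter. At the promoter the peak held 173, 236 and 353 tags, with tag densities of 1.81 (1.55 to 2.11), 1.59 (1.396 to 1.81) and 1.56 (1.41 to 1.74) in the myogenic, adipogenic and LSD1(OE) library. These intervals overlap. The ratio of adipogenic to myogenic density was 0.878 (0.719 to 1.07), and that of LSD1(OE) to adipogenic density 0.982 (0.830 to 1.16). The LSD1(OE) peak was called over 4089 bp, compared with 2066 bp in the myogenic and 2318 bp in the adipogenic library. Without division by length the LSD1(OE) library had 1.73 (1.46 to 2.05) times the tags of the adipogenic and 1.71 (1.42 to 2.06) times those of the myogenic library, so that the order at this promoter depends on the length of the peaks. The upstream region was 1 peak in the myogenic library, 5930 bp from the TSS, with 320 tags and a score of 1430. This was the highest score of any Klf9 peak. The region was split into 2 peaks in the adipogenic library, with 181 and 129 tags, and in the LSD1(OE) library, with 240 and 86 tags. Here the ratio of adipogenic to myogenic density was 0.685 (0.584 to 0.804) and that of LSD1(OE) to myogenic density 0.764 (0.653 to 0.895). The myogenic library was highest here. The myogenic summit (chr19:23136213-23136512, + strand, GRCm38) is shown because its peak was the strongest of the members outside a promoter. It held 2 CACCC and 1 GGGCGG.
Klf9 upstream summit, myogenic: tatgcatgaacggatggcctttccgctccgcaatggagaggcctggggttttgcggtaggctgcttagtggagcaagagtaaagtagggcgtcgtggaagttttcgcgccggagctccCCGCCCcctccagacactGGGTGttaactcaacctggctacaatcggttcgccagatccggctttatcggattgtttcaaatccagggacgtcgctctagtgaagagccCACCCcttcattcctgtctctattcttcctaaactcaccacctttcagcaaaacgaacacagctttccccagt

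The remaining Klf9 peaks had 29 tags in the myogenic library, upstream, and 30 tags in the LSD1(OE) library, in an intron and nearest to the TSS of Mir1192. Klf15, which controls the uptake and use of fuel in muscle and fat and is induced by glucocorticoids (chr6:90462576-90479686, + strand), had no peak in the myogenic or adipogenic library. Its only peak was in the LSD1(OE) library, in an intron 3607 bp downstream of the TSS (chr6:90465741-90466625), with 49 tags and a score of 75.2. This was a weak peak, above 32.0% of its list by score. The nearest peaks of the myogenic and adipogenic lists lay 33763 and 92602 bp outside the gene, closest to the TSSs of Cfap100 and Zxdc. The summit window (chr6:90466062-90466361, + strand, GRCm38) is shown as that of a region found only in LSD1(OE) cells, and it held 2 CACCC and 1 CAGCTG.
Klf15 intron summit, LSD1(OE): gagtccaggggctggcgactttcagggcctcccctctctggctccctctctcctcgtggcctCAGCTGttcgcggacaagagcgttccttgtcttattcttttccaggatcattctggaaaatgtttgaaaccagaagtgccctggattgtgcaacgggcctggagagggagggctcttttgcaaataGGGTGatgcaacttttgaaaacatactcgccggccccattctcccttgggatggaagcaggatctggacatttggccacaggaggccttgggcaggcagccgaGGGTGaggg

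Klf10, an early gene of TGFβ signalling (chr15:38291464-38300711, − strand), had the strongest Lsd1 peak of the family. Its promoter peak held 853 tags in the myogenic, 818 in the adipogenic and 1059 in the LSD1(OE) library, over 5253, 4679 and 6843 bp. The scores were 3100, 1796 and 3100, where 3100 is the ceiling MACS can write, so the myogenic and LSD1(OE) scores are lower bounds and cannot be ranked. Peaks at this ceiling numbered 40, 3 and 37 in the 3 lists. Within each library the peak stood above 99.9% of the list by score. The tag density was 3.52 (3.29 to 3.76) in the myogenic, 2.74 (2.55 to 2.93) in the adipogenic and 2.80 (2.64 to 2.98) in the LSD1(OE) library. The ratio of adipogenic to myogenic density was 0.777 (0.705 to 0.857), close to the median of all shared regions given below, and that of LSD1(OE) to wild-type adipogenic density 1.03 (0.935 to 1.12). The ratio of LSD1(OE) to myogenic density was 0.797 (0.728 to 0.873), and 1.04 (0.948 to 1.14) without division by length.

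The 3 summits of the Klf10 promoter lay 692 to 704 bp upstream of the nearest TSS. The window of the adipogenic library (chr15:38301260-38301559, + strand, GRCm38) is shown as the strongest place of the family, and held 2 GGGCGG boxes and no CACCC.
Klf10 promoter summit, adipogenic: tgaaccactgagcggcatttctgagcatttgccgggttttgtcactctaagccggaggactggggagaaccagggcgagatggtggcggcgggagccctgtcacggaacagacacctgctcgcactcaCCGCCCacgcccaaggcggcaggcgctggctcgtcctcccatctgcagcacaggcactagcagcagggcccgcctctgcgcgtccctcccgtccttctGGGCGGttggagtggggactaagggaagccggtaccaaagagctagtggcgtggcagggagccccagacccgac

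Klf10 lies on chromosome 15, where all 3 libraries stood apart from the other autosomes. Of the genes on chromosome 15, 61.2, 52.1 and 57.2% had a promoter peak in the myogenic, adipogenic and LSD1(OE) library, compared with 47.7, 27.2 and 38.0% of the genes on the other autosomes. The median background of its peaks was higher than that of peaks on the other autosomes by 10.7, 14.6 and 5.84% in these libraries. The part of this chromosome in the Klf10 values was not tested. Without Klf10, 8, 7 and 9 of the 9 remaining genes had a peak. The other regions of Klf10 were weak, with 31 to 67 tags. In total 2 of them, downstream of the gene, were shared by the myogenic and LSD1(OE) libraries, 1 was found in the myogenic library only and 1 in the LSD1(OE) library only.

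Klf13, a regulator of chemokine transcription in T lymphocytes, was the member on which the libraries differed most in number of peaks (chr7:63886351-63938915, − strand). It had 4 peaks in the myogenic, 6 in the adipogenic and 12 in the LSD1(OE) library, in 12 regions. All 12 were occupied in the LSD1(OE) library, 3 of them in all libraries, 2 also in the adipogenic library and 7 in no other. Of all genes, 0.126% had at least 8 more peaks in the LSD1(OE) than in the myogenic library, as Klf13 did. All 33 of these genes had a span at least as long as that of Klf13, as 4776 genes had, and they were 0.691% of those long genes. Over the genome the LSD1(OE) list was the shorter one, and 34.6% of all genes had fewer peaks in it than in the myogenic list.

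The promoter region of Klf13 did not follow this order. Its strongest peak held 287 tags in the myogenic library (score 982), 143 in the adipogenic library (score 239) and 316 in the LSD1(OE) library (score 943). The myogenic library had a further peak of 40 tags in this region, 2532 bp downstream of the TSS. The adipogenic library had a further peak of 94 tags, 99 bp upstream of the TSS. These further peaks did not overlap, and the adipogenic one lay within the extent of the strongest myogenic peak. The ratio of adipogenic to myogenic density over the region was 0.839 (0.706 to 0.994), and that of LSD1(OE) to myogenic density 0.978 (0.835 to 1.15).

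Inside the gene, 2 further regions were occupied in all 3 libraries. The one 41570 bp downstream of the TSS in the myogenic library held 64, 111 and 177 tags with scores of 149, 197 and 659.7. The one 37444 bp downstream held 36, 51 and 111 tags with scores of 67.8, 66.3 and 365. In both, the LSD1(OE) library was highest. The ratios of LSD1(OE) to myogenic density were 1.30 (0.972 to 1.76) and 1.44 (0.981 to 2.16), values above those of 97.3 and 99.2% of the shared regions, although both intervals include 1. The ratios of adipogenic to myogenic density were 1.08 (0.784 to 1.49) and 1.00 (0.643 to 1.58).

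A region 13765 bp downstream of the TSS, singled out here after its values were seen, had no myogenic peak and held 121 tags in the adipogenic library (score 170.3) and 179 in the LSD1(OE) library (score 747). Its tag density was 1.15 (0.958 to 1.38) in the adipogenic and 1.81 (1.56 to 2.10) in the LSD1(OE) library. The ratio was 1.57 (1.24 to 2.00), the highest of the members and above that of 98.4% of the shared regions. The other region of the 2 adipogenic libraries held 69 and 52 tags. The window at the LSD1(OE) summit of the stronger one (chr7:63925301-63925600, + strand, GRCm38) is shown because this intronic place had the highest ratio of LSD1(OE) to wild-type density among the members.
Klf13 intron summit, LSD1(OE): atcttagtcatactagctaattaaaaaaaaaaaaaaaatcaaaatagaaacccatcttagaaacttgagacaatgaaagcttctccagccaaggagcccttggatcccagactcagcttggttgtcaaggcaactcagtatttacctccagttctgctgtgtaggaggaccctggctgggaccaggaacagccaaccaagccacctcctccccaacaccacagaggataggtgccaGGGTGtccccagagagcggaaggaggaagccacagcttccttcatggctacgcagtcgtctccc

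The 7 regions found in the LSD1(OE) library only were weaker, with 33 to 71 tags and scores of 53.0 to 175, and were spread from 4267 to 50959 bp downstream of the TSS. One lay in the UTR and the others in introns. Moreover, 2 transcripts of the opposite strand, Gm27252 and E030018B13Rik, start inside the span of Klf13 and were nearer than the Klf13 TSS to 2 of its 4 myogenic, 4 of its 6 adipogenic and 10 of its 12 LSD1(OE) peaks. When a peak counted only for the gene of the nearest TSS, Klf13 had 2 peaks in each library. Which of these genes the intronic peaks serve was not tested. The order of the libraries remained with peaks of an FDR of at most 0.1% (2, 4 and 5 peaks), with a score of at least 100 (2, 4 and 8) and with equally long lists of the strongest peaks (2, 6 and 8).

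**Figure D3:**
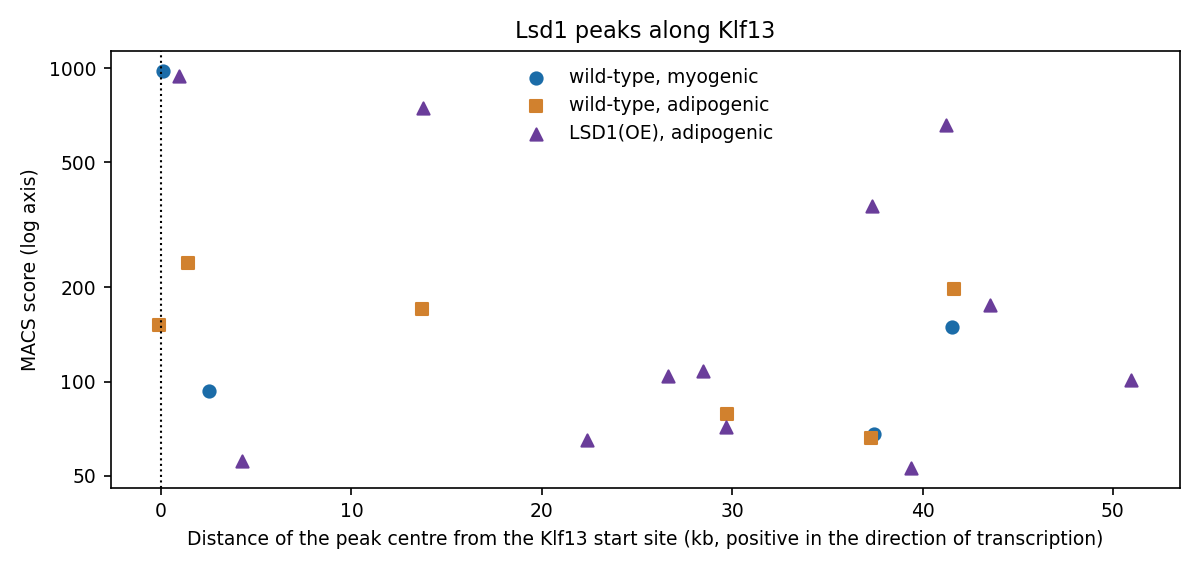
MACS score on a log axis of each Klf13 peak against the distance of its centre from the TSS in kb, positive in the direction of transcription, with 1 symbol per library. At the TSS the myogenic and LSD1(OE) libraries reached 982 and 943, whereas beyond it the highest scores were those of the LSD1(OE) library at 747 and 660.

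Next, tag densities were compared at all regions of the 10 genes that a pair of libraries shared. Between adipogenic and myogenic wild-type cells the median ratio was 0.773 over 15 regions, against 0.800 over all 14149 shared regions. It was below 1 at 12 of the 15, and at 88.2% of all shared regions. For 9 of the 15 the interval lay below 1, against 39.5% of all shared regions, and for none above. The wider intronic region of Klf3, where the peaks of these libraries overlapped only in part, is among the 9. Such counts, here and below, depend on the number of tags as well as on the ratio, since intervals narrow as tags rise. Most of the shared member regions held more tags than the median myogenic peak, which had 54. Between LSD1(OE) and wild-type cells in adipogenic medium the median ratio was 1.17 over 17 regions, against 1.09 over all 13053. It was below 1 at 3 of the 17 and at 29.4% of all shared regions. For 5 of the 17 the interval lay above 1, against 16.3% of all shared regions, and these were the promoters of Klf2, Klf4 and Klf5 and 2 intronic regions of Klf13. Between LSD1(OE) adipogenic and wild-type myogenic cells the median was 0.899 over 20 regions, against 0.879 over all 18581. Of these, 14 were below 1, against 74.4% of all, and for 6 the interval lay below 1, against 21.9% of all.

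By tag density the medians of the family thus lay close to those of all shared regions, and single genes departed from them. The lowest ratio of adipogenic to myogenic density was that of the Klf7 promoter at 0.521 and the highest that of the region behind Klf3 at 1.19. The 3 comparisons share libraries, and each library enters 2 of them. Klf13 supplied the highest ratios to LSD1(OE) cells in both comparisons that include them, 1.57 and 1.44. Pooled over the shared regions, the ratios were 0.792 (0.754 to 0.833), 1.15 (1.10 to 1.21) and 0.900 (0.861 to 0.942). These intervals count the pooled tags only and leave out the spread between regions and between libraries. The pooled ratios weigh regions by their tags, of which the Klf10 promoter held the most.

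The length of the called peaks bore on these ratios. Without division by length, 15 of the 52 ratios moved by more than 1.5 times. The median of LSD1(OE) over wild-type adipogenic cells was then 1.54 at the members, against 1.18 over all shared regions, and 12 of the 17 intervals lay above 1 in place of 5. The Klf2 promoter had the highest ratio of this comparison, at 3.26 (2.55 to 4.19), in place of the Klf13 intron. Between adipogenic and myogenic cells the upstream region of Klf4 had the lowest, at 0.301 (0.231 to 0.388), in place of the Klf7 promoter, and 11 of the 15 intervals lay below 1. Between LSD1(OE) and myogenic cells 8 of the 20 intervals lay below 1, and 4 above in place of none. Those above were at the promoters of Klf2 and Klf9 and in the 2 Klf13 intron regions of all 3 libraries.

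**Figure D4:**
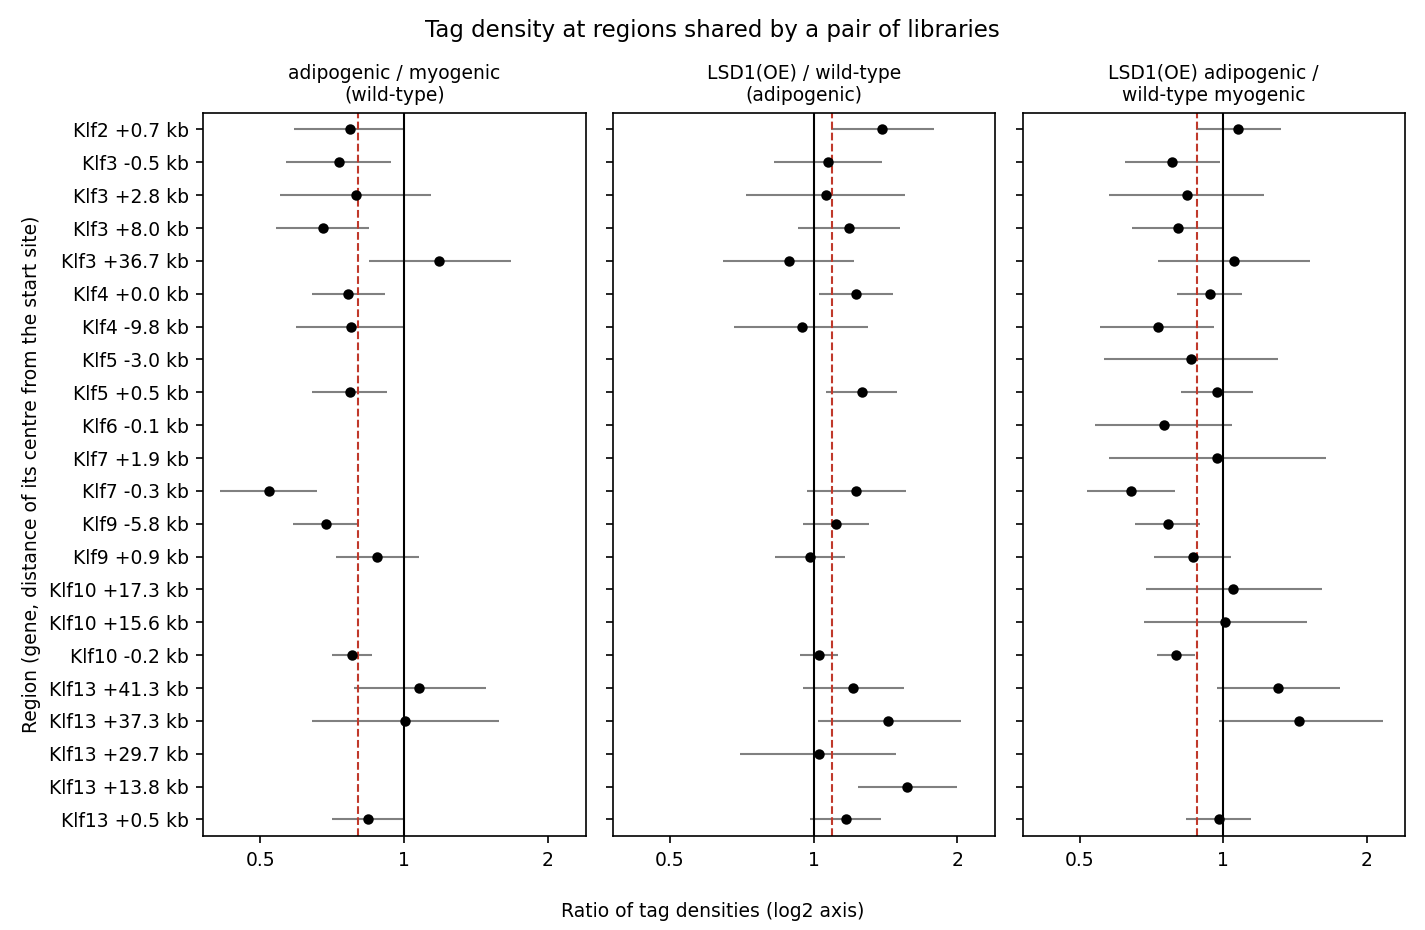
Ratio of tag densities (log2 axis) at each region of the 10 genes shared by a pair of libraries, named by gene and distance of the region's centre from the TSS. Points are ratios, bars exact 95% intervals of counting error, the solid line marks 1 and the dashed line the median of all shared regions, 0.800, 1.09 and 0.879. The Klf7 promoter lies far to the left in the first panel and intronic Klf13 regions lie to the right in the others.

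The sequence under the summits was then examined in windows of 300 bp. At promoter peaks of the members the median GC content was 66.3, 66.3 and 65.3% in the myogenic, adipogenic and LSD1(OE) library, compared with 62.3, 62.3 and 62.0% at all promoter peaks. At their other peaks it was 49.7, 55.0 and 52.0%, compared with 49.3, 50.3 and 49.7%. The members' own type of binding motif, CACCC, on either strand, was held by 16 of 29 myogenic, 15 of 19 adipogenic and 24 of 37 LSD1(OE) summit windows. These are 55.2% (95% Wilson interval 37.5 to 71.6%), 78.9% (56.7 to 91.5%) and 64.9% (48.8 to 78.2%), compared with 57.9, 59.7 and 57.7% of all peaks, and each interval includes the share of all peaks. The GC box GGGCGG was held by 37.9% (22.7 to 56.0%), 42.1% (23.1 to 63.7%) and 32.4% (19.6 to 48.5%) of the member windows, compared with 21.3, 26.1 and 21.0% of all. Windows of the same region in different libraries overlap, so that they are not independent. Unlike GC content, the motif shares were not split into promoter and other peaks. The part of promoter peaks in them was not tested.

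The myogenic interval for GGGCGG lay above the share of all peaks, and the other intervals for it did not. This changed with the window. In windows of 200 bp the myogenic share of 27.6% (14.7 to 45.7%) included the 16.3% of all peaks, and the LSD1(OE) share of 29.7% (17.5 to 45.8%) lay above the 16.2% of all peaks. For CACCC, the adipogenic share in 200 bp was 42.1% (23.1 to 63.7%), below the 46.2% of all peaks. Motifs of other factors were counted as well. The E-box CAGCTG was found in 6 of 29, 5 of 19 and 9 of 37 member windows, compared with 25.8, 29.3 and 25.9% of all. The AP-1 motif TGANTCA was found in 4, 1 and 3, or 13.8, 5.26 and 8.11%, compared with 18.9, 20.3 and 18.1%. AGAACA was found in 7, 3 and 4, or 24.1, 15.8 and 10.8%, compared with 20.6, 19.5 and 20.9%. The Wilson intervals of the shares of the E-box, the AP-1 motif and the AGAACA half-site include the share of all peaks in each library. A match says that these letters are in the window and does not show a bound site.

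Finally, the rest of the family was counted by the same rule. Of the 7 other Krüppel-like genes considered, 3 had a peak in the myogenic, 4 in the adipogenic and 3 in the LSD1(OE) library. Klf1, the erythroid factor, Klf11, a TGFβ-inducible relative of Klf10, and Klf16 had a promoter peak in every library, while Klf8, Klf14 and Klf17, named here after their values were seen, had no peak in any. The remaining gene, Klf12, had 1 peak in the adipogenic library only, inside its long span and far from its TSS. The Sp genes encode the closest relatives of the family, and of the 9 Sp genes 8 had a peak in each library. Promoter peaks numbered 7, 5 and 7. Those with a promoter peak in every library were Sp1, Sp2, Sp3, Sp4 and Sp8, and Sp5 had no peak. Per 100 kb of window, the 10 members had 6.41, 4.20 and 8.18 peaks, the other Krüppel-like genes 1.30, 1.13 and 0.972, and the Sp genes 7.22, 4.12 and 6.96. The windows of Klf12 and Klf8 made up 299 and 181 of the 617 kb of the other Krüppel-like genes, with 1 peak at Klf12 and none at Klf8. The low values of that list therefore depend on these long genes. The members and lists were also chosen with earlier results of these data known. Contrasts between the lists, and of the members with all genes, are therefore descriptions only.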

How the data were processed

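Lsd1 ChIP-seq was analysed from 3 peak lists, 1 per condition. According to the submitters' processing notes, Bowtie2 and MACS 1.41 were used with mm10, and the file headers name MACS 1.4.2, which compared a ChIP library with the input of its condition and kept peaks with p up to 1e-05. The deposited tag count of a peak is a raw count, taken once MACS had filtered duplicates. The score, as deposited, equals −log10 of p multiplied by 10, for which the authors' MACS run scaled the ChIP tags up to the input. The deposited fold enrichment (a ratio to the local background) is not on 1 scale across libraries and was not used. The deposited FDR is in percent and served as an alternative threshold.

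The scaling raises scores unequally, by 1.90, 1.28 and 1.82 times the tags in the myogenic, adipogenic and LSD1(OE) library, so tag densities were computed from the counts and the 46155625, 63915769 and 55193310 filtered tags. The local background was solved from tags, length and score. Conditions were assigned by the sample labels. Peaks were assigned by their centre to gene spans widened by 10 kb, with curated RefSeq transcripts on GRCm38. The ratio of 2 densities has an exact conditional binomial interval and a share a Wilson interval, both at 95% and for counting error only. No test between conditions was made, since n was 1. Sequences were read from the GRCm38 RefSeq assembly. The members, lists and motifs were chosen with earlier results of these data known. All members were named, each with its peaks. For those with more than 4 regions, the regions of all 3 libraries, the strongest and the promoter regions were given singly. Of the other family genes, those with a promoter peak in every library were named. The steps were tested on simulated data. Reads, RNA-seq and other assays of the study were not analysed here. Python 3.11.15, NumPy 2.4.6, pandas 2.3.3, SciPy 1.17.1 and matplotlib 3.10.9 were used.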

Additional observations from a re-analysis of the deposited data

How the results depend on the processing

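The numbers of genes with a peak and with a promoter peak stayed within 1.5 times their value under every alternative run (36 and 39 values), ranging from 7 to 10 and from 6 to 10. The number of peaks and the library patterns moved with the threshold. With an FDR of at most 0.1%, the members had 19 myogenic and 19 LSD1(OE) peaks, and 3 regions of the myogenic library only, 2 of the LSD1(OE) library only, 1 of the myogenic and LSD1(OE) libraries and 1 of the adipogenic and LSD1(OE) libraries. With a score of at least 100 there were 19 myogenic peaks, and 2, 7, 2 and 1 regions of these patterns. With equally long lists there were 16 myogenic peaks, 0 regions of the myogenic, 1 of the adipogenic and 6 of the LSD1(OE) library only, and 1 of the myogenic and LSD1(OE) libraries. With scores not scaled up these 4 patterns had 3, 1, 7 and 1 regions. A window of 5 kb left 3 regions of the myogenic and LSD1(OE) libraries, and one of 25 kb gave 14 of the myogenic library only. Assignment by the nearest TSS, and the omission of Klf13, each left 6 regions of the LSD1(OE) library only and 0 of the adipogenic and LSD1(OE) libraries. Without Klf10 there were 3 regions of the myogenic and LSD1(OE) libraries. Leaving out Klf13 or Klf10 was chosen after seeing the data. Without division by peak length, the pooled ratio was 0.617 for adipogenic over myogenic and 1.53 for LSD1(OE) over wild-type adipogenic cells, in the same direction. In summit windows of 200 bp, 42.1% of adipogenic windows held CACCC, against 46.2% of all peaks, 5.26% held AGAACA, and 2.70% of LSD1(OE) windows held TGANTCA. The pooled ratios kept their direction. Of the 52 ratios at single regions, 5 turned without division by length. LSD1(OE) over adipogenic became 1.73 at the Klf9 promoter and 0.873 at the weaker Klf13 region of the 2 adipogenic libraries, and LSD1(OE) over myogenic became 1.71 at the Klf9 promoter, 1.04 at the Klf10 promoter and 0.821 at a Klf10 region downstream. A further 14 gained an interval outside 1. With tags outside peaks as the library total, 3 ratios near 1 turned, to 0.963 (adipogenic over myogenic, Klf13 intron), 1.00 (LSD1(OE) over adipogenic, Klf9 promoter) and 0.990 (LSD1(OE) over myogenic, Klf10 downstream), and 2 gained an interval outside 1. With mapped tags as the total, 1 turned, to 1.00 (adipogenic over myogenic, Klf13 intron). The ratios move with the length of the peaks or the library total, and the other values because an alternative keeps fewer or other peaks, genes or bases by construction. No paired analysis was possible because each condition has 1 ChIP library.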

Other observations

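The local background was solved from tags, length and score. In the adipogenic library it equalled the genome-wide value, 43.6 tags per kb after scaling, at every occupied member promoter except that of Klf10. These were the promoters of Klf2, Klf3, Klf4, Klf5, Klf7, Klf9 and Klf13, so that tags over background there carry the same information as the tag density. At the Klf10 promoter of this library the background was 79.0 tags per kb. The Klf10 peak held 2.82 times its background, compared with 3.10, 3.04 and 2.98 times at the promoters of Klf5, Klf3 and Klf9, although its tag density was the highest of the family in this library. The strongest promoter peaks of Klf4, Klf13, Klf2 and Klf7 held less, at 2.72, 2.36, 2.31 and 2.04 times. In the other libraries the ceiling of the score leaves the Klf10 background unknown.

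The promoter summits of the members had a median ratio of observed to expected CpG of 0.799, 0.740 and 0.784 in the myogenic, adipogenic and LSD1(OE) library, compared with 0.734, 0.732 and 0.720 at all promoter peaks. Away from promoters the members' medians were 0.224, 0.312 and 0.173, compared with 0.192, 0.203 and 0.195. The stronger intronic region of Klf13 shared by the LSD1(OE) and adipogenic libraries alone, described above, had its summit at a different place in each library. The summit windows did not overlap. In the LSD1(OE) library the ratio was 0.167, below the median of all its peaks outside promoters. In the adipogenic library the ratio was above the corresponding median of 0.203, so the 2 summits of this region lay on opposite sides.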
